A study of Mus musculus with 24 samples.

Results

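Mouse chromosome 13 carried 1367 of the 53386 regions (2.56%) in which reads were counted, and all of its listed regions are described here from the raw counts. The list of regions came from calls that the authors made on reads, so where regions lie is a description and not a test. Chromosome 13 was itself chosen by its H3K9me2 over input values in earlier results of these data, which are therefore given as a description, beside those of all regions. The study measured dimethylation of lysine 9 of histone H3 (H3K9me2) by chromatin immunoprecipitation and sequencing in hearts of 6 C57BL6 mice aged 12 months, 3 female and 3 male. Every mouse had undergone ischaemic preconditioning, in which the left coronary artery was closed for 5 min and reopened for 5 min in each of 4 cycles, with 30 min of reperfusion at the end. Each heart gave a biopsy of the area at risk, the muscle fed by that artery, and a biopsy of the remote myocardium. Both biopsies gave an H3K9me2 library and an input library, so that 24 libraries form 4 groups of 6: area at risk H3K9me2, area at risk input, remote myocardium H3K9me2 and remote myocardium input. All 4 groups thus come from preconditioned hearts. Sham hearts, which the series' design names, were not analysed here.

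H3K9me2 is written mainly by the methyltransferases G9a and GLP and is known from broad domains of silent or weakly transcribed chromatin, while start sites of active genes carry little of it. Cytosine followed by guanine (CpG) is clustered at the start sites of many broadly expressed genes, and such CpG-rich starts are usually free of the mark. Mouse chromosome 13 is known for several long clusters of related genes, among them the replication-dependent histones, the vomeronasal and odorant receptors, the prolactin family, the serpins of clade B and zinc finger genes. Many members of the receptor, prolactin and cathepsin clusters are used in sense organs, placenta or other tissues and are not known as genes of heart muscle.

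The promoters that follow show the contrast between a CpG-rich and a CpG-poor start site, since they belong to the regions with the lowest and some of the highest H3K9me2 over input in remote myocardium. They are taken from RefSeq on build GRCm38.p6, the assembly of mm10, and hold 250 bases before and 50 bases after the start, 5′ to 3′ on the gene's strand. Capitals mark each CG pair, which reads the same on both strands. Hnrnpa0 (chr13:58128507-58128806, minus strand) encodes an RNA-binding protein, Gadd45g (chr13:51846425-51846724, plus strand) a protein induced by growth arrest and DNA damage, Mier3 (chr13:111685928-111686227, plus strand) a protein with a SANT domain, and Gm40909 (chr13:34506450-34506749, minus strand) is annotated as a long non-coding RNA.
Hnrnpa0: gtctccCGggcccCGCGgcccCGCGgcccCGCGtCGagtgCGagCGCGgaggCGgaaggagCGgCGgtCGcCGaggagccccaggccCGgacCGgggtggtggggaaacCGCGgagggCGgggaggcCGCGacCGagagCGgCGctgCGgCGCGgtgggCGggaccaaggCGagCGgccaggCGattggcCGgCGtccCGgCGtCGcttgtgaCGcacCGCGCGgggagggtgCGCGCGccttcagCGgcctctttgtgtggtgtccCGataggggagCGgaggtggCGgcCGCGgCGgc
Gadd45g: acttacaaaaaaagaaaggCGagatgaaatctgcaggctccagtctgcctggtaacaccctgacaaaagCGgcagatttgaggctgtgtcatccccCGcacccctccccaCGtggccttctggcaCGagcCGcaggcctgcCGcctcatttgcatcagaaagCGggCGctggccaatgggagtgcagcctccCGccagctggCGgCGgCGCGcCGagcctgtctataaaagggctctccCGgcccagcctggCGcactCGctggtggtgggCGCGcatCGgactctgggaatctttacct
Mier3: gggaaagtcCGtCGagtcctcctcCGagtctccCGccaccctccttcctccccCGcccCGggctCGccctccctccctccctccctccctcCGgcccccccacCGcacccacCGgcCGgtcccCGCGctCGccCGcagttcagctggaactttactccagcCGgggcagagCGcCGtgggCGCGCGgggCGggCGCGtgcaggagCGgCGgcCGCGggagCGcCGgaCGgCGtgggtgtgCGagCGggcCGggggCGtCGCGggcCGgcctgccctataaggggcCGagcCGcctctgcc
Gm40909: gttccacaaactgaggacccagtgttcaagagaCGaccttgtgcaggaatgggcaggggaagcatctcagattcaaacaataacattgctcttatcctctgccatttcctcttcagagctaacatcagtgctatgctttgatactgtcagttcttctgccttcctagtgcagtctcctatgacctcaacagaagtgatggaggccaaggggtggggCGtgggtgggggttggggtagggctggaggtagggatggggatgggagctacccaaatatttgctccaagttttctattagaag
Hnrnpa0 held 52 CG pairs, a number that 1.70% of the 1527 promoters of the chromosome in the table reached. Mier3 held 41, reached by 4.06% of them, and Gadd45g 21, reached by 22.7%. Gm40909 held 2, which 86.9% of the promoters reached, against a median of 7 over all of them. All 4 promoters overlap the region they belong to. Among the highest regions, those of the long non-coding RNAs 2610307P16Rik and A330076C08Rik lie 180 kb and 19.8 kb from the promoter of their gene, and those promoters are not shown.

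Total counts in listed regions ran from 416683 to 1196368 in the 6 H3K9me2 libraries of the area at risk, against 1286383 to 2478668 in its inputs. They ran from 443261 to 981763 in H3K9me2 libraries of remote myocardium, against 1405503 to 1770520 in its inputs. Chromosome 13 took 11750 to 29786 counts of the H3K9me2 libraries and 30920 to 55998 of the inputs in the area at risk. For remote myocardium these were 12479 to 26514 in H3K9me2 libraries and 32183 to 41906 in inputs. The input libraries are deeper than the H3K9me2 libraries in both biopsies, and the part of that in the contrasts below was not tested. Biopsies hold all cell types of the heart wall, so more cells with the mark and more of the mark per cell cannot be told apart. The counts are of DNA, and the tissue could not be checked against RNA markers.

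Chromosome 13 took a larger share of the H3K9me2 counts than of the input counts in every mouse and both biopsies. In the area at risk its share of a library's counts was 2.49%, 2.77% and 2.99% (lowest, median and highest of 6 mice) in H3K9me2 libraries, against 2.26%, 2.38% and 2.44% in inputs. Its share in remote myocardium was 2.70%, 2.78% and 3.0% in H3K9me2 libraries, against 2.27%, 2.34% and 2.37% in inputs. The H3K9me2 libraries did not overlap the inputs in either biopsy. Within mice, the log2 ratio of the H3K9me2 share to the input share was 0.14 to 0.31 in the area at risk and 0.23 to 0.34 in remote myocardium, above 0 in 6 of 6 mice each. Between the biopsies the H3K9me2 shares overlapped.

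The gain lay outside start sites. A region within 2 kb of the start of a protein-coding gene was classed as start site (238 regions), another region within a gene as gene body (760) and the rest as intergenic (369). The start-site regions took 0.33%, 0.34% and 0.36% of the counts in H3K9me2 libraries of the area at risk, against 0.38%, 0.39% and 0.40% in its inputs, and were lower in 6 of 6 mice. Intergenic regions took 0.76%, 0.88% and 0.99% in those H3K9me2 libraries, against 0.58%, 0.66% and 0.68% in inputs, and were higher in 6 of 6 mice. Gene bodies took 1.39%, 1.56% and 1.67% in H3K9me2 libraries, against 1.27%, 1.33% and 1.37% in inputs. Median shares in remote myocardium were 0.34% in H3K9me2 libraries against 0.40% in inputs for start sites, 1.56% against 1.30% for gene bodies and 0.87% against 0.64% for intergenic regions. All 6 mice had the same order of H3K9me2 and input there in each class.

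**Figure D1:**
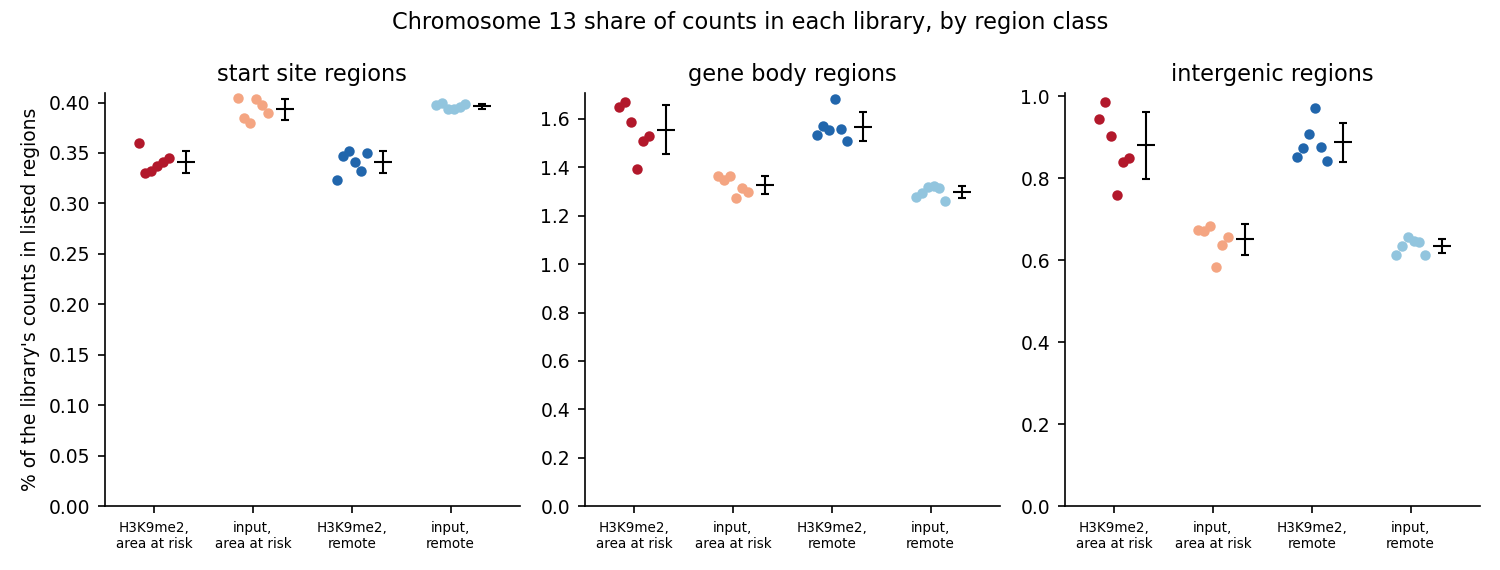
Share of each library's counts (% of its counts in listed regions, y axis) that fell in chromosome 13 regions of each class, by group (x axis), with 1 point per mouse and the mean ± SD beside the points (n = 6). H3K9me2 libraries lie below inputs at start sites and above them in gene bodies and between genes, in both biopsies.

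Across single regions, H3K9me2 over input was more often higher than lower on chromosome 13. Each contrast was fitted over all regions of the genome with edgeR's quasi-likelihood test, and a region was called at a Benjamini-Hochberg adjusted p (FDR) under 0.05. A log2 fold change above 0 means more counts in H3K9me2 than in input, relative to the scaling of the libraries. In the area at risk 1094 of the 1367 regions passed the filter on low counts, and 241 of them (22.0%) were called higher in H3K9me2, while the share over all regions tested was 11.4%. Another 53 (4.84%) were called lower, with 12.3% over all regions tested. Remote myocardium had 1086 tested regions, of which 418 (38.5%) were called higher and 96 (8.84%) lower, with 20.6% and 19.9% over all regions. The authors' deposited tables list 215 of the 1367 regions of the chromosome with more H3K9me2 than input and 52 with less in the area at risk. In remote myocardium these are 382 and 86. Over all 53386 regions the authors list 4162 with more and 5045 with less in the area at risk, and 7593 and 7630 in remote myocardium. Without mouse 19 the number called higher in the area at risk was 156.

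Most calls of the area at risk recurred in remote myocardium. Of the 1079 regions tested in both, 216 were called higher in both, which is 89.6% of the 241 in the area at risk and 52.2% of the 414 in remote myocardium. Another 40 were lower in both, 75.5% of 53 and 42.1% of 95, and 0 were called in opposite directions. The log2 fold changes of the 2 biopsies correlated at r = 0.82 across these regions, which share mice and the region list. Both biopsies come from the same hearts, so this is a description of these animals.

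The median log2 fold change of the regions was 0.24 in the area at risk, with 0.01 over all regions tested, and 0.29 in remote myocardium, with 0.01 over all. Chromosome 13 ranked 1 of 19 autosomes in both biopsies. The next autosome was chromosome 18 at 0.12 in the area at risk and chromosome 1 at 0.14 in remote myocardium, and chromosome 19 was lowest at -0.12 and -0.15. The X chromosome had a higher median over its 67 and 66 tested regions, 0.37 and 0.62, in these mixed sexes.

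**Figure D2:**
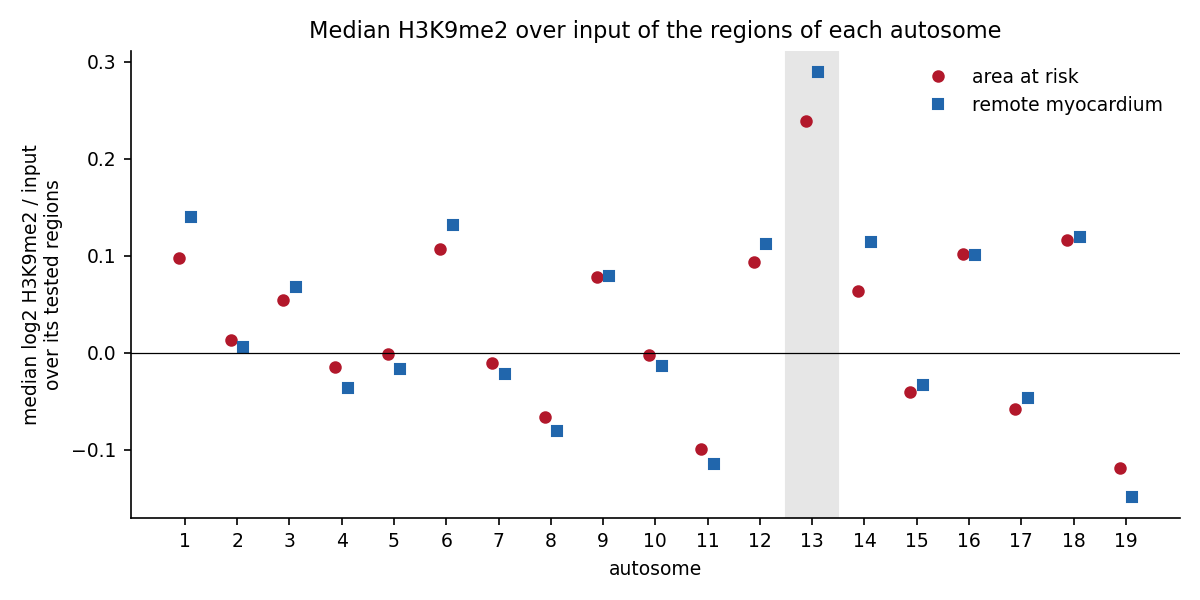
Median log2 ratio of H3K9me2 to input (y axis) over the tested regions of each autosome (x axis), with 1 circle for the area at risk and 1 square for remote myocardium and chromosome 13 shaded. Chromosome 13 stands at 0.24 and 0.29, above the other autosomes, which reach 0.14 at most.

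Chromosome 13 ranked first in each class as well, but narrowly at start sites. Its median there was -0.175 in the area at risk and -0.184 in remote myocardium, against -0.183 and -0.208 for chromosome 6. The next autosome was chromosome 6 for gene bodies, at 0.11 and 0.14. For intergenic regions it was chromosome 3, at 0.36 and 0.46. Classes were compared over the 18 autosomes for which the promoter table used here holds start sites. Start-site regions had a median log2 fold change of -0.17 in the area at risk, with -0.33 over all such regions, and -0.18 in remote myocardium, with -0.39 over all. Of these regions 3 were higher and 36 lower among 177 tested in the area at risk, and 17 higher and 56 lower among 174 in remote myocardium. Over all start-site regions 2.75% were higher and 33.1% lower in the area at risk, and 5.88% and 45.3% in remote myocardium. Gene bodies had medians of 0.24 and 0.28, with 0.02 and 0.02 over all, and 116 of 606 and 220 of 601 were higher, where the shares over all gene bodies were 10.4% and 19.3%. Intergenic regions had medians of 0.43 and 0.50, with 0.24 and 0.29 over all, and 122 of 311 and 181 of 311 were higher, with 22.2% and 37.8% over all intergenic regions, while 0 and 5 were lower. The order of the classes was thus the same as elsewhere, at a higher level. Intergenic regions made up 27.0% of the list on chromosome 13 and 18.4% of it over the chromosomes with start sites, and start-site regions 17.4% and 18.7%.

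Promoter CpG content went with the level at start sites. Among regions that hold the promoter of a coding gene, those with 15 or more CG pairs had a median log2 fold change of -0.41 in the area at risk, where 1 of 97 was higher and 30 (30.9%) lower, with 46.9% lower over all such regions. Their median in remote myocardium was -0.51, with 4 of 96 higher and 49 (51.0%) lower, against 60.0% lower over all. Regions with 5 to 14 pairs had medians of 0.05 and -0.03 over 30 regions each. The 4 regions with 0 to 4 pairs had medians of 0.51 and 0.59. Over all chromosomes the medians of the CpG-rich regions were -0.51 and -0.58. Across the 131 and 130 regions of chromosome 13 the rank correlation of log2 fold change with the number of pairs was -0.43 in the area at risk and -0.40 in remote myocardium, given as a description, since the points share libraries and base composition also bears on read recovery. Of the 829 coding genes of the chromosome, 725 have a promoter in the table.

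Listed regions were spread very unevenly along the chromosome. They ran from base 3007600 to base 119792399 and were 200 to 10800 bases wide, with a median of 2400. Of 121 windows of 1 Mb, 100 held a region, 76 held 3 or more and 21 held none. The 14 windows from 43 to 57 Mb, a stretch chosen after its values were seen, held 578 regions (42.3%) and 131 of the coding genes (15.8%). That is 41.3 regions per Mb, with 11.7 over the listed span. By contrast, the first 20 Mb held 65 regions and the stretch from 80 to 100 Mb 138. Of the 829 coding genes, 357 (43.1%) had a region within 2 kb, with 55% over all chromosomes. The deposited list held 408 regions that overlap another, and the 104 wholly covered ones hold no read in any library. In all, 116 regions of the chromosome hold no read.

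Windows differed in direction over short distances. Counts were summed per window of 1 Mb over the whole genome and fitted in the same way, and 94 windows of chromosome 13 passed the filter in each biopsy. In the area at risk 35 were called, where the share over all windows was 42.0%, with 31 higher in H3K9me2 and 4 lower (21.2% and 20.8% over all windows). Remote myocardium had 59 called windows (64.2% over all), 49 of them higher and 10 lower, with 34.4% and 29.8% over all windows. Of the called windows 28 were higher and 4 lower in both biopsies, 0 were opposite, and the log2 fold changes correlated at r = 0.89 over 94 windows. The TMM scaling of the fit sets window values below the plain ratio of library shares: with library totals in its place the median of all windows moved to 0.15 in the area at risk and 0.20 in remote myocardium, against 0.03 and 0.04. Relative to that median, chromosome 13 windows lay 0.13 higher under either scaling in both biopsies. With library totals 55 windows were higher and 1 lower in the area at risk, and 70 higher and 4 lower in remote myocardium. Without mouse 19, 2 windows were lower in the area at risk, and without mouse 17, 6 were lower in remote myocardium.

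**Figure D3:**
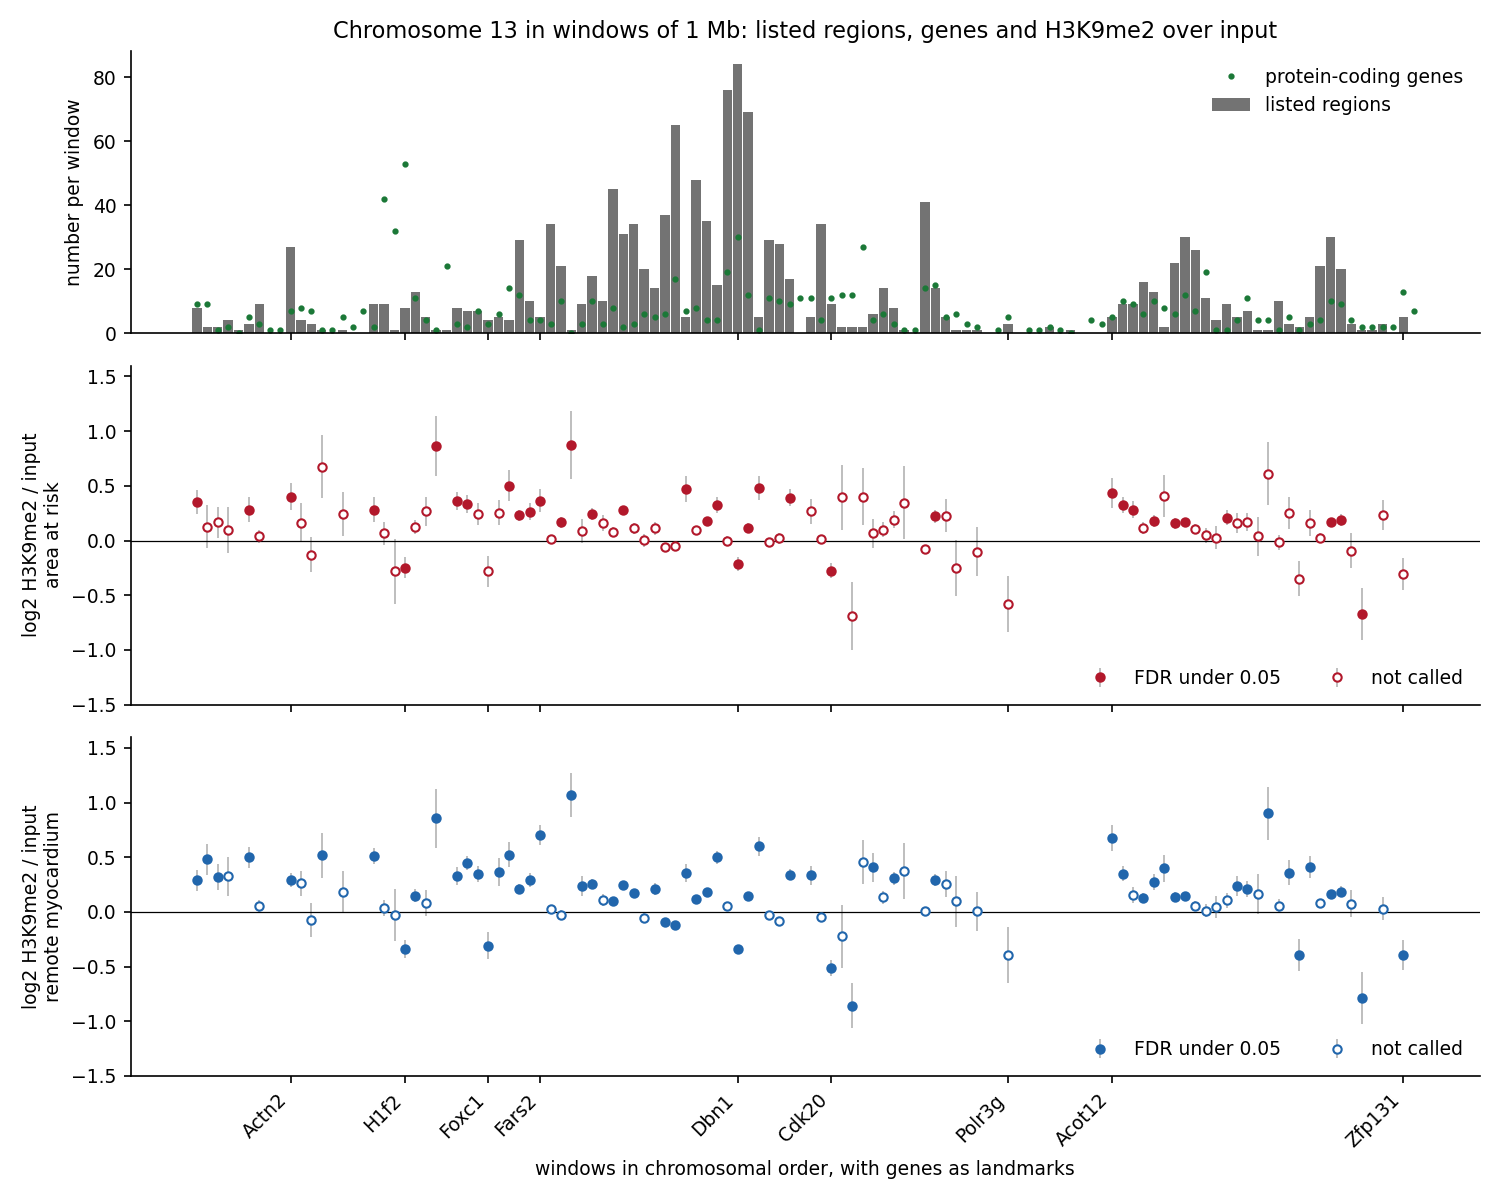
Windows of 1 Mb in chromosomal order (x axis, genes as landmarks): listed regions (bars) and coding genes (points) per window on top, and the log2 ratio of H3K9me2 to input ± SE in the area at risk (middle) and remote myocardium (bottom), with called windows filled. The windows of Dbn1 and Cdk20 are called lower in both biopsies, while most called windows lie above 0.

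The densest window, 55 to 56 Mb, was among the lowest. It held 84 regions, 30 coding genes and 22 start-site regions, and spans the genes of the receptor Fgfr4, the kinase Grk6, the hexokinase Hk3, the H3K36 methyltransferase Nsd1, the actin-binding protein drebrin (Dbn1) and the helicase Ddx41. In the area at risk it had 1394, 1486 and 1542 CPM (counts scaled to the library's total in listed regions) in H3K9me2 libraries, against 1494, 1568 and 1644 CPM in inputs. The values in remote myocardium were 1399.8, 1433 and 1542 CPM in H3K9me2 libraries, against 1575, 1635 and 1711 CPM in inputs. H3K9me2 lay below input in 6 of 6 mice in both, and the groups do not overlap in remote myocardium. The log2 fold change was -0.21 ± 0.06 (SE; edgeR FDR = 0.00908) in the area at risk and -0.34 ± 0.04 (FDR = 5.89e-09) in remote myocardium. As for all windows, the TMM scaling sets these values below the plain ratio of the CPM values, so their size depends on the scaling.

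Its neighbours went the other way within 2 Mb. The window from 53 to 54 Mb, with the Wnt5a receptor Ror2 and the serine palmitoyltransferase subunit Sptlc1, had 261, 359 and 441 CPM in H3K9me2 libraries of the area at risk, against 245, 264 and 274 CPM in inputs. H3K9me2 libraries of remote myocardium had 353, 394 and 491 CPM there, against 233, 252 and 280 CPM in inputs. This window holds 15 regions and no start-site region, and its log2 fold changes were 0.33 ± 0.07 (edgeR FDR = 0.0015) and 0.50 ± 0.06 (FDR = 2.68e-08). The window from 57 to 58 Mb, whose 1 coding gene is the proteoglycan gene Spock1, had 115, 160.1 and 203 CPM in H3K9me2 libraries of the area at risk, against 81.1, 104 and 120.3 CPM in inputs. For remote myocardium it had 139.5, 162 and 222 CPM in H3K9me2 libraries, against 87.3, 98.2 and 108 CPM in inputs. Its log2 fold changes were 0.48 ± 0.11 (FDR = 0.00206) and 0.60 ± 0.08 (FDR = 6.62e-07).

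The windows between them were intermediate. The window from 54 to 55 Mb (76 regions, with the synaptic gene Cplx2 and the histamine receptor gene Hrh2) had log2 fold changes of 0.00 and 0.05 and was not called. The window from 56 to 57 Mb (69 regions, with the histone variant gene Macroh2a1, the BMP effector Smad5 and Tgfbi) stood at 0.12 (edgeR FDR = 0.0393) and 0.14 (FDR = 0.000184). Within the low window the classes parted: its 15 tested start-site regions had medians of -0.28 and -0.41, with 4 and 9 called lower, and its gene bodies -0.10 and -0.13. The intergenic regions of the same window had medians of 0.41 and 0.21, with 6 called higher in the area at risk and 3 higher and 2 lower in remote myocardium. Gene bodies of the flanking windows had positive medians, 0.26 and 0.29 from 54 to 55 Mb and 0.32 and 0.45 from 56 to 57 Mb.

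Other low windows are small and rich in start sites. The window from 64 to 65 Mb holds 9 regions, 7 of them at start sites, and spans the lysosomal protease gene Ctsl, the kinase gene Cdk20, Habp4, Slc35d2 and Zfp367. It had 148, 166 and 179 CPM in H3K9me2 libraries of the area at risk, against 166, 186 and 194 CPM in inputs. Those of remote myocardium had 129, 148 and 161 CPM, against 160, 187 and 212 CPM in inputs. The log2 fold changes were -0.28 ± 0.07 (edgeR FDR = 0.00301) and -0.51 ± 0.07 (FDR = 9.21e-07), and with library totals the value of the area at risk became -0.15 (FDR = 0.0833). The window from 31 to 32 Mb with the forkhead genes Foxc1 and Foxf2 stood at -0.28 (FDR = 0.117) and -0.31 (FDR = 0.0296), and the window from 119 to 120 Mb with Zfp131, Nim1k and Tmem267 at -0.31 (FDR = 0.0987) and -0.39 (FDR = 0.0159). Both calls of remote myocardium ended with library totals and without mouse 17 or mouse 19, and that of Foxc1 and Foxf2 also without mouse 27 or on regions that overlap no other (FDR from 0.0587 to 0.725). The window from 81 to 82 Mb, with the RNA polymerase III subunit gene Polr3g, Lysmd3 and Mblac2, had values of -0.58 (FDR = 0.0735) and -0.40 (FDR = 0.175) over 3 regions of low count and was not called.

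The highest windows hold few genes or few start sites. From 33 to 34 Mb, a window of the serpin B cluster, H3K9me2 libraries of the area at risk had 53.5, 81.8 and 106 CPM, against 38.7, 49.7 and 57.5 CPM in inputs, a log2 fold change of 0.50 ± 0.14 (edgeR FDR = 0.00787). Remote myocardium stood at 0.52 ± 0.12 (FDR = 0.000352). From 36 to 37 Mb, with Fars2, the mitochondrial phenylalanine tRNA synthetase, as the 1 gene that its 5 regions reach, remote myocardium had 106, 141 and 189 CPM in H3K9me2 libraries, against 69.7, 77.4 and 85.9 CPM in inputs. These groups do not overlap, and the log2 fold change was 0.70 ± 0.09 (FDR = 3.24e-07), with 0.37 ± 0.11 (FDR = 0.0112) in the area at risk. From 91 to 92 Mb, with the thioesterase gene Acot12 and the autophagy gene Atg10, it was 0.44 ± 0.14 (FDR = 0.0146) in the area at risk, where the call ended without mouse 30 (FDR = 0.0677), and 0.68 ± 0.12 (FDR = 1.84e-05) in remote myocardium.

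Among the other windows at the top, 12 to 13 Mb holds all 9 regions of a block of Prl2c genes, the methionine synthase gene Mtr and a gene of the heart muscle itself, Actn2, which encodes the alpha-actinin of the Z disc. That window had 251, 398 and 524 CPM in H3K9me2 libraries of the area at risk, against 208, 271 and 305 CPM in inputs, with a log2 fold change of 0.40 ± 0.12 (edgeR FDR = 0.0121) and of 0.29 ± 0.06 (FDR = 0.000255) in remote myocardium. The Actn2 region of smallest p was not called in the area at risk (0.38, FDR = 0.375), while the regions of the Prl2c block alone had a median sum of 173 CPM in H3K9me2 libraries, against 90.5 CPM in inputs. The window from 60 to 61 Mb, with the death-associated kinase gene Dapk1 and the hedgehog co-receptor gene Gas1, stood at 0.39 (FDR = 0.00087) and 0.34 (FDR = 7.7e-07). From 20 to 21 Mb, with the engulfment adaptor gene Elmo1, the values were 0.28 (FDR = 0.0475) and 0.51 (FDR = 1.66e-06), and from 50 to 51 Mb, with Fbxw17, 0.47 (FDR = 0.00448) and 0.35 (FDR = 0.000338).

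Gene number alone separated the windows of chromosome 13 less than those of the genome. Over windows with 3 or more regions, log2 fold change correlated with the number of coding genes at r = -0.29 in the area at risk and -0.37 in remote myocardium (76 windows). Over all chromosomes the values were -0.56 and -0.58 (1453 and 1452 windows). With the share of a window's regions at start sites, chromosome 13 gave r = -0.57 and -0.56. Windows share libraries and neighbours, so these are descriptions. Among these windows, those with 10 or more coding genes had medians of 0.12 in the area at risk and 0.10 in remote myocardium, with -0.10 and -0.15 over all such windows. Of the 24 on chromosome 13, 10 were higher and 3 lower in the area at risk, with 10.8% and 42.8% over all, and 12 higher and 5 lower in remote myocardium, with 15.4% and 57.9% over all. In windows with 0 to 4 coding genes the medians were 0.16 and 0.21, beside 0.18 and 0.22 over all such windows.

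The number of listed regions followed the number of genes except in the family clusters. Windows with 10 or more coding genes had a median of 18 regions where families made up 50% of the genes or less (23 windows), but 2 where families made up more than that (7 windows). The rank correlation of regions with coding genes over 121 windows was 0.53, and 0.64 when family genes were not counted.

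**Figure D4:**
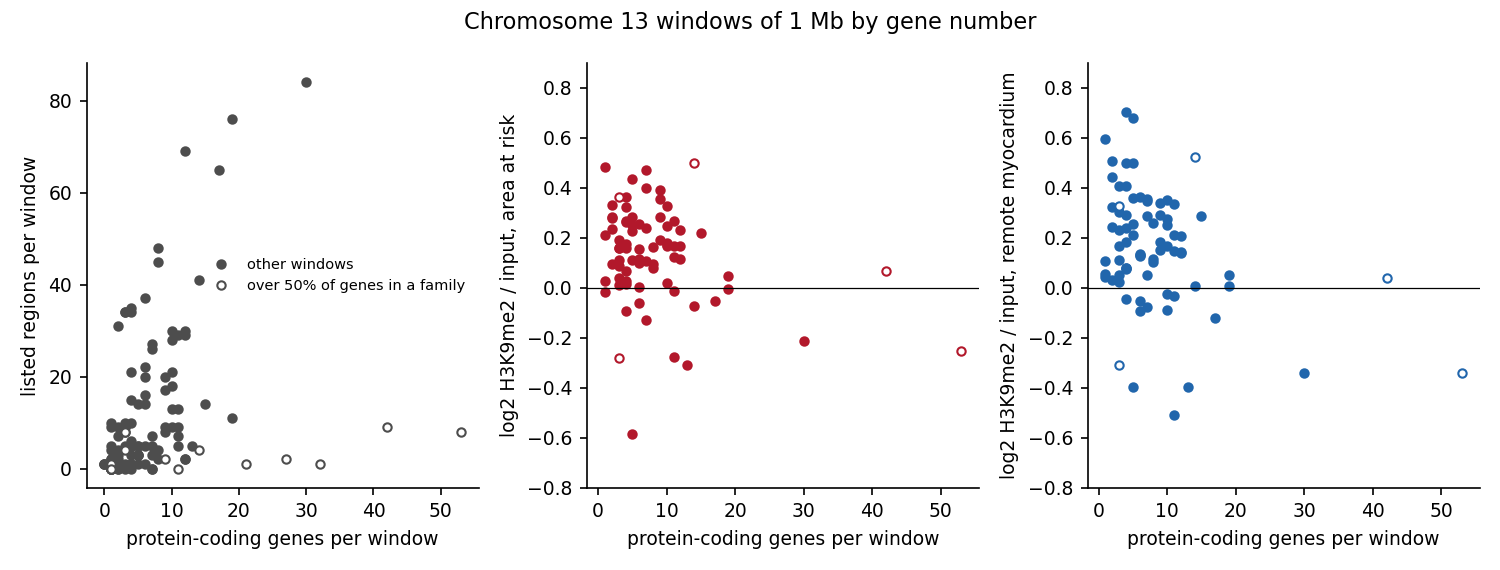
Coding genes per window of 1 Mb (x axes) against listed regions per window (left, windows with a gene or a region) and against the log2 ratio of H3K9me2 to input in the area at risk (middle) and remote myocardium (right, windows with 3 or more regions). Open symbols are windows with over 50% of their genes in a family: they hold up to 9 regions, while other windows hold up to 84.

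Long receptor and placental clusters were almost without listed regions. The 75 vomeronasal receptor genes and pseudogenes from 22057168 to 23269501 had 1 region, at the pseudogene Vmn1r-ps135, with 2.40, 4.59 and 9.0 CPM in H3K9me2 libraries of the area at risk, against 1.61, 2.98 and 5.41 CPM in inputs, too low to test. The 23 genes of the main prolactin cluster (27057570 to 28151595) likewise held 1 untested region. None of the 13 odorant receptor genes had a region within 2 kb, and the 3 regions inside their cluster include both regions of Trim27, a ubiquitin ligase gene that lies among them. A region at the start of Trim27 was lower in both biopsies, -0.67 (edgeR FDR = 0.0108) and -0.71 (FDR = 0.00202). No region lay in the clusters of the aldo-keto reductases 1C, T cell receptor gamma, SLC17 transporters, small leucine-rich proteoglycans or NAIP genes. The absence of a region says that none was listed, and counts outside the listed regions were not analysed here.

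Several regions of the serpin B cluster and of the Prl2c block were called higher. The 7 regions of the serpin cluster (17 genes, intracellular protease inhibitors) summed to 91.1, 125 and 154 CPM in H3K9me2 libraries of the area at risk, against 68.6, 91.1 and 93.9 CPM in inputs. Their sums in remote myocardium were 109.8, 114 and 169.9 CPM in H3K9me2 libraries, against 74.0, 84.9 and 94.3 CPM in inputs. H3K9me2 was above input in 6 of 6 mice in both, and 2 of 5 tested regions were called higher in the area at risk (11.4% over all regions) and 4 of 5 in remote myocardium (20.6% over all). Over the tested regions of chromosome 13 these shares were 22.0% and 38.5%. The region at the start of Serpinb9b stood at 0.89 (edgeR FDR = 0.00299) and 0.45 (FDR = 0.045), where the call of remote myocardium ended without mouse 17, 19, 22 or 30, on regions that overlap no other and with DESeq2 (FDR from 0.0753 to 0.167), and the region of Serpinb1a at 0.01 and 0.04. The block of Prl2c genes from 12790816 to 13191930 (3 genes, 9 regions, 8 of them between genes) summed to 71.9, 173 and 292 CPM in H3K9me2 libraries of the area at risk, against 47.6, 90.5 and 119 CPM in inputs. The same block in remote myocardium summed to 122, 169 and 213 CPM in H3K9me2 libraries, against 71.1, 96.5 and 117 CPM in inputs, and these groups do not overlap. There 3 of 4 tested regions were higher (20.6% over all), 1 of them at 0.86 (edgeR FDR = 3.33e-11). The call at 12955400 ended without mouse 19 (FDR = 0.0527) or mouse 27 (FDR = 0.101). In the area at risk 2 of 3 were higher (11.4% over all), and both calls ended with DESeq2 (FDR = 0.0747 and 0.0627). Of the tested intergenic regions of chromosome 13, 39.2% were higher in the area at risk and 58.2% in remote myocardium. Some of the 9 regions, such as that at 12979400, hold no read in any library.

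Histone genes were mostly near input. Their 2 clusters hold 24 and 31 genes, 20 of which had a region within 2 kb, in 8 regions, of which 6 span several histone genes. Another 4 regions inside the clusters touch no histone gene. The linker histone gene H1f2 had 1.80, 7.51 and 13.3 CPM in H3K9me2 libraries of the area at risk, against 16.2, 18.9 and 25.4 CPM in inputs. H3K9me2 libraries of remote myocardium gave it 3.06, 7.51 and 9.98 CPM, against 15.1, 17.9 and 23.0 CPM in inputs. The groups do not overlap in either biopsy, and the log2 fold changes were -1.38 (edgeR FDR = 0.000228) and -1.43 (FDR = 2.22e-06). Another linker histone gene, H1f5, had -0.57 (FDR = 0.101) and -0.73 (FDR = 0.0156, and from 0.05 to 0.0532 without mouse 22 or 23 and with DESeq2). The region of the core histone genes H2ac7, H2ac8, H2bc7, H2bc8 and H3c4 stood at -0.11 (FDR = 0.794) and -0.13 (FDR = 0.706), and that of H2ac6 and H2bc4 at -0.02 in both. An intergenic region of the first cluster was higher, 0.57 (FDR = 0.022, and up to 0.117 without mouse 17, 19 or 27) and 0.94 (FDR = 1.3e-06). The window from 23 to 24 Mb, which holds the second cluster, was called lower at -0.25 (FDR = 0.0416) and -0.34 (FDR = 0.000748), but with library totals these became -0.13 (FDR = 0.271) and -0.18 (FDR = 0.0592), and the call of the area at risk also ended without mouse 17, 19, 22 or 23 (FDR from 0.0977 to 0.138). Copies of histone genes are near-identical, so reads may be split among them and single-gene values are uncertain.

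Other families gave single regions. In the cathepsin cluster 1 region, at 4930486L24Rik, was higher, 0.87 (edgeR FDR = 0.00328) and 0.81 (FDR = 0.000102). The zinc finger cluster from 66670274 to 67827000 (27 genes) had 3 regions, none called higher, and its region at Ptdss1 and Mterf3 was lower in remote myocardium at -0.69 (FDR = 0.00842) with -0.57 (FDR = 0.116) in the area at risk. Among the forkhead genes the region of Foxc1 stood at -0.10 (FDR = 0.739) and -0.56 (FDR = 0.0132), and the call of remote myocardium ended without mouse 17 (FDR = 0.053) or mouse 27 (FDR = 0.194).

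The lowest single regions lie at start sites or, for Dbn1 and Pdlim7, in gene bodies. Regions were named here if called, of at least median abundance and with the same sign in 6 of 6 mice. The region of Hnrnpa0 (chr13:58126200-58129199, as the files give it on mm10), whose promoter is the most CpG-rich of those printed, had 4.80, 8.53 and 14.4 CPM in H3K9me2 libraries of the area at risk, against 25.7, 30.9 and 34.6 CPM in inputs. Its values in remote myocardium were 2.90, 8.88 and 9.29 CPM in H3K9me2 libraries, against 23.1, 32.2 and 37.2 CPM in inputs. No H3K9me2 library reached an input in either biopsy, and the log2 fold changes were -1.71 ± 0.22 (edgeR FDR = 7.84e-08) and -1.99 ± 0.23 (FDR = 5.22e-14).

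Gadd45g (chr13:51845200-51849199) had 11.9, 17.2 and 23.4 CPM in H3K9me2 libraries of the area at risk, against 35.8, 40.4 and 43.9 CPM in inputs. Remote myocardium gave 11.3, 16.5 and 20.4 CPM in H3K9me2 libraries, against 33.5, 36.4 and 41.3 CPM in inputs. The groups lie far apart in both, with log2 fold changes of -1.22 ± 0.17 (edgeR FDR = 7.11e-07) and -1.12 ± 0.18 (FDR = 2.9e-08). Mier3 (chr13:111685800-111688599) had 9.98, 13.2 and 24.8 CPM in H3K9me2 libraries of remote myocardium, against 23.9, 28.9 and 36.2 CPM in inputs, so the groups touch. Its log2 fold change was -1.06 ± 0.20 (FDR = 2.46e-06) there and -0.50 (FDR = 0.0799) in the area at risk.

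Several of the other low regions lie in the dense window from 55 to 56 Mb. The region at the starts of Mxd3, a Max-binding repressor of the MYC network, Prelid1 and Rab24 (chr13:55321400-55328399) had 12.4, 21.4 and 27.5 CPM in H3K9me2 libraries of remote myocardium, against 36.8, 43.6 and 45.5 CPM in inputs. It stood at -0.97 (edgeR FDR = 1.26e-07) there and at -0.77 (FDR = 0.000505) in the area at risk. At another Mxd3 region, which starts at 55329400, H3K9me2 and input overlapped in both biopsies. It had 47.5 to 64.8 CPM against 49.2 to 58.5 CPM in the area at risk, and 36.1 to 58.8 CPM against 54.8 to 64.4 CPM in remote myocardium. Drebrin's region (Dbn1, chr13:55469600-55477599, a gene body region) had 32.4, 40.8 and 57.7 CPM in H3K9me2 libraries of the area at risk, against 65.4, 76.0 and 90.0 CPM in inputs, with -0.83 (FDR = 4.87e-06) there and -0.87 (FDR = 2.97e-10) in remote myocardium. Ddx41 (chr13:55534400-55538199) stood at -0.60 (FDR = 0.00997, and 0.0512 without mouse 30) and -0.91 (FDR = 4.69e-06), and a gene body region of the LIM protein gene Pdlim7 (chr13:55499800-55505199) at -0.84 (FDR = 3.5e-05) and -0.39 (FDR = 0.0128).

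Pik3r1, the regulatory subunit of phosphoinositide 3-kinase, stood at -0.92 (edgeR FDR = 0.000382) in the area at risk and -0.72 (FDR = 0.000609) in remote myocardium. The ring finger gene Rnf44 stood at -0.74 (FDR = 0.000341) and -0.72 (FDR = 3.05e-05), and Bmp6, a ligand of the BMP family, at -0.72 (FDR = 0.00747) and -0.55 (FDR = 0.0143). Hnrnpk, an RNA-binding protein gene whose region was under the abundance limit, had 3.10, 6.18 and 10.2 CPM in H3K9me2 libraries of remote myocardium, against 23.5, 26.9 and 29.0 CPM in inputs. Its log2 fold change of -2.06 (FDR = 5.93e-13) compares with -1.13 (FDR = 0.000272) in the area at risk.

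**Figure D5:**
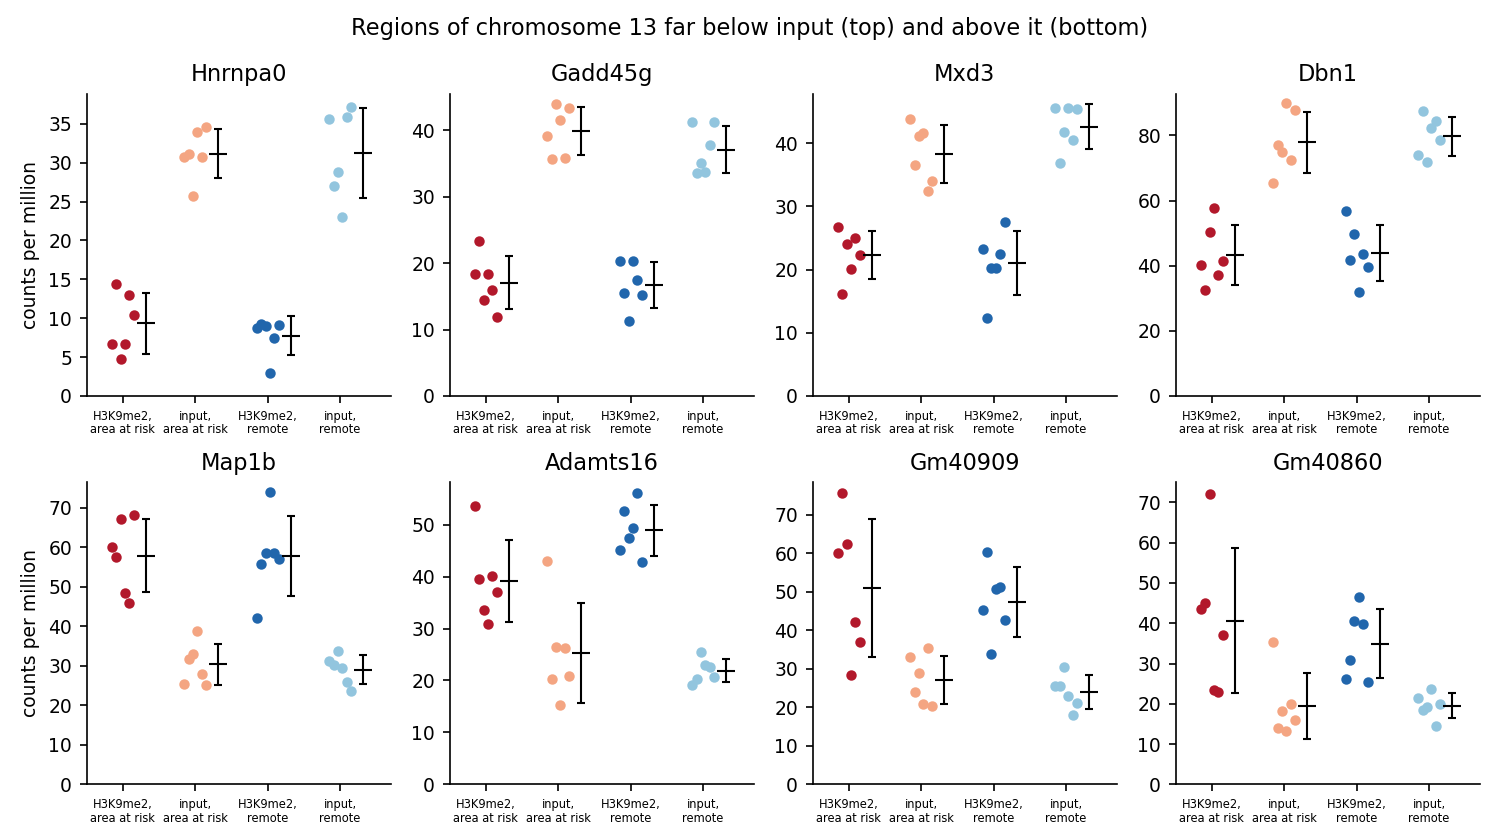
CPM of 8 regions of chromosome 13 (y axes) by group (x axes), with 1 point per mouse and the mean ± SD beside the points (n = 6). For Hnrnpa0, Gadd45g, Mxd3 and Dbn1 every H3K9me2 library lies below every input of its biopsy; for Map1b, the lower panel at left, every H3K9me2 library lies above.

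The highest single regions lie in gene bodies, long non-coding RNAs and between genes. Map1b (chr13:99447000-99450799), which encodes a microtubule-associated protein of neurons, had 46.0, 58.9 and 68.2 CPM in H3K9me2 libraries of the area at risk, against 25.2, 29.9 and 38.7 CPM in inputs. Map1b in remote myocardium had 42.3, 57.8 and 74.1 CPM in H3K9me2 libraries, against 23.6, 29.9 and 33.9 CPM in inputs. The groups do not overlap in either, with log2 fold changes of 0.86 ± 0.14 (edgeR FDR = 1.28e-05) and 0.99 ± 0.13 (FDR = 2.1e-10). Adamts16 (chr13:70751000-70753799), a secreted metalloprotease gene, had 42.8, 48.4 and 56.1 CPM in H3K9me2 libraries of remote myocardium, against 19.2, 21.6 and 25.4 CPM in inputs. It stood at 1.15 ± 0.15 (FDR = 1.63e-11) there and at 0.66 (FDR = 0.00636) in the area at risk, where the groups overlap.

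Intergenic regions led both lists, and those named here lie 16.4 to 342 kb from the nearest coding gene. The region at chr13:5593800-5596399, 265 kb from the Krüppel-like factor gene Klf6, had 28.7, 37.7 and 54.1 CPM in H3K9me2 libraries of remote myocardium, against 10.6, 16.3 and 18.9 CPM in inputs. It stood at 1.25 ± 0.17 (edgeR FDR = 2.92e-10) there and at 0.96 (FDR = 0.000687) in the area at risk. The region at chr13:73192400-73194999, 64.6 kb from the ventricular homeobox gene Irx4, had 23.4, 36.3 and 57.6 CPM in H3K9me2 libraries of the area at risk, against 9.33, 15 and 35.0 CPM in inputs. H3K9me2 was above input within each of the 6 mice, although the groups overlap, and the log2 fold change was 1.04 ± 0.22 (FDR = 0.000488), with 1.00 (FDR = 8.98e-07) in remote myocardium. The others of this kind lie 342 kb from Cd83 (1.14 in remote myocardium), 191 kb from Trpc7 (1.1 there), 17.6 kb from Prl2c3 (0.97 in the area at risk), 16.4 kb from Rasgrf2 (0.94), 168 kb from Gas1 (0.89), 71.2 kb from Ercc6l2 (0.87) and 38.4 kb from Tmem174 (0.87).

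Long non-coding RNA genes supplied the remaining high regions. Gm40909 (chr13:34503400-34506799), whose CpG-poor promoter is printed above, had 33.8, 48.0 and 60.4 CPM in H3K9me2 libraries of remote myocardium, against 17.9, 24.3 and 30.5 CPM in inputs. It stood at 0.99 ± 0.15 (edgeR FDR = 5.28e-09) there and at 0.83 (FDR = 0.000483) in the area at risk. Gm40860 stood at 0.96 in the area at risk (FDR = 0.000833), and 2610307P16Rik, A330076C08Rik and Gm35190 at 1.1, 1.06 and 0.99 in remote myocardium.

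Stress-responsive genes were called lower more often than higher. Of the stress-responsive and immediate early genes of the chromosome, 11 of 13 were tested: 6 were lower and 0 higher in the area at risk, and in remote myocardium 4 were lower, 1 higher and 1 had regions called in both directions. By region, 0 were higher and 6 lower of 19 in the area at risk, with 11.4% and 12.3% over all regions, and 2 were higher and 6 lower of 19 in remote myocardium, with 20.6% and 19.9% over all. Their regions had medians of -0.39 and -0.33, with 0.01 and 0.01 over all regions. Besides Gadd45g, Pik3r1 and Ddx41, these were the bZIP repressor Nfil3, the thrombin receptor F2r and the kinase Map3k1. The gene lists used here share members. Ddx41 is also counted with the housekeeping genes below, F2r with the endothelial and mural genes, and Foxc1 with both these and the developmental factors. All 6 lower regions of the area at risk lie at start sites. Of all start-site regions tested, 33.1% were lower in the area at risk and 45.3% in remote myocardium. On chromosome 13 these shares were 20.3% and 32.2%. Whether the listed genes differ from other start sites was not tested. Nfil3 had 2.97, 8.80 and 11.7 CPM at its start in H3K9me2 libraries of the area at risk, against 20.8, 22.5 and 26.8 CPM in inputs, with a log2 fold change of -1.47 (edgeR FDR = 1.66e-05), and of -1.03 (FDR = 7.51e-05) in remote myocardium. Another region of Nfil3 was higher in remote myocardium. The start of F2r stood at -1.0 (FDR = 0.00256) and that of Map3k1 at -1.15 (FDR = 0.0055) in the area at risk. The member that was higher was Ripk1, a kinase of cell death signalling, in its gene body (0.55, FDR = 0.0319, remote myocardium), a call that ended without mouse 17, 19, 22 or 30, on regions that overlap no other and with DESeq2 (FDR from 0.0528 to 0.142).

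Neuronal genes went the other way where they could be measured. Only 4 of 20 had a listed region and 3 were tested, and all 3 were called higher in both biopsies, in 4 of 10 and 5 of 10 tested regions (11.4% and 20.6% over all regions) with medians of 0.43 and 0.47. They are Map1b, the neurotrophin receptor gene Ntrk2 at 0.89 (edgeR FDR = 0.0055) in the area at risk and 0.86 (FDR = 0.000535) in remote myocardium, and the synaptic gene Cplx2. For Cplx2 the region of smallest p stood at 0.42 (FDR = 0.0239) in the area at risk, where the call ended without mouse 22, 27 or 30 and with DESeq2 (FDR from 0.0502 to 0.0739). In remote myocardium another of its regions stood at 0.66 (FDR = 0.0113), where the call ended without mouse 17, 19 or 23 (FDR from 0.0572 to 0.0755). All of these regions lie in gene bodies. Of all gene body regions tested on chromosome 13, 19.1% were higher in the area at risk and 36.6% in remote myocardium. Their medians were 0.24 and 0.28. Whether the neuronal genes differ from other gene bodies of the chromosome was not tested.

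Cardiac muscle genes had calls in both directions, while 7 of 9 tested in the area at risk and 4 of 8 in remote myocardium had none. Their regions had medians of -0.03 and -0.08. Over the tested regions of chromosome 13 the medians were 0.24 and 0.29, with 22.0% and 38.5% higher and 4.84% and 8.84% lower. In the area at risk 1 of 9 tested genes was higher and 1 lower, and in remote myocardium 3 of 8 higher and 1 lower. By region, these were 1 higher and 1 lower of 19, with 11.4% and 12.3% over all regions, and 3 higher and 1 lower of 18, with 20.6% and 19.9% over all. The lower one was Jarid2, a cofactor of Polycomb repression needed for heart development, whose start had 2.5, 6.15 and 11.7 CPM in H3K9me2 libraries of remote myocardium, against 11.2, 19.5 and 21.3 CPM in inputs. It stood at -1.44 (edgeR FDR = 3.55e-06) there and at -0.79 (FDR = 0.0339) in the area at risk, where the call ended without mouse 17, 19, 23, 27 or 30 and with DESeq2 (FDR from 0.0515 to 0.126). The phosphodiesterase gene Pde8b was higher at 0.56 (FDR = 0.0296) and 0.51 (FDR = 0.0188), and Actn2 and Phactr1 at 0.65 (FDR = 0.0366) and 0.42 (FDR = 0.0426) in remote myocardium. Each of these 4 calls ended when 1 of several mice was left out, with FDR up to 0.196 for Pde8b, 0.173 for Actn2 and 0.175 for Phactr1. With DESeq2 the calls of Actn2 (FDR = 0.0858), Phactr1 (0.0794) and Pde8b in the area at risk (0.0501) ended too. On regions that overlap no other, those of Actn2 (FDR = 0.0573) and Phactr1 (0.0749) ended.

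Genes listed for mitochondria and metabolism, not all of them mitochondrial, had 0 calls among 13 tested in the area at risk by edgeR. Fbp1, a gluconeogenic enzyme gene, came nearest at 0.47 (edgeR FDR = 0.0511). In remote myocardium 5 were higher and 3 lower, in 5 higher and 2 lower of 23 regions, with 20.6% and 19.9% over all regions. On chromosome 13, 38.5% of the tested regions were higher and 8.84% lower there. The respiratory assembly factor gene Ndufaf2 had 27.1, 36.7 and 39.7 CPM in its gene body in H3K9me2 libraries of remote myocardium, against 19.9, 21.9 and 28.4 CPM in inputs, at 0.65 (edgeR FDR = 0.000422). The start shared by Mrpl36 and Ndufs6, a mitochondrial ribosomal protein gene and a complex I subunit gene, stood at -0.61 (FDR = 0.0457), and the gene body of Mrps27, another mitochondrial ribosomal protein gene, at -0.54 (FDR = 0.0159). Higher calls lay in the gene bodies of the phosphofructokinase gene Pfkp (0.48, FDR = 0.0201) and Fbp1 (0.42, FDR = 0.0302) and at the starts of Sirt5, a deacylase gene (0.34, FDR = 0.0387), and Mtrr, the methionine synthase reductase gene (0.45, FDR = 0.0441). The call of Ndufaf2 held without each mouse in turn. The others ended without mouse 23 for Mrps27 (FDR = 0.0567), mouse 19 or 22 for Pfkp (up to 0.178), any mouse but 17 for Fbp1 (up to 0.118), mouse 17, 23, 27 or 30 for Sirt5 (up to 0.17) and Mtrr (up to 0.182), and mouse 19, 22, 27 or 30 for the shared start (up to 0.159). With DESeq2 the calls of Mrps27 (FDR = 0.052), Fbp1 (0.0693), Sirt5 (0.0899), Mtrr (0.0879) and the shared start (0.112) ended too. On regions that overlap no other, those of Fbp1, Sirt5 and Mtrr ended (FDR from 0.0566 to 0.0803). With no low-count filter the shared start was not called (FDR = 0.0537). Genes listed for housekeeping, RNA processing or translation were lower in 3 of 11 in the area at risk. In remote myocardium 6 were lower and 2 higher of 11. By region, these were 3 lower of 19, with 12.3% over all regions, and 5 lower and 2 higher of 19, with 19.9% and 20.6% over all. Of the tested regions of chromosome 13, 4.84% were lower in the area at risk, and 8.84% lower and 38.5% higher in remote myocardium. In remote myocardium Hnrnpa0, Hnrnpk, Ddx41, Nsd1 (not called without mouse 19, FDR = 0.0709) and the start shared by Rad17 and Taf9 (-0.82, FDR = 0.00123) were the lower ones. Of the higher ones Cwc27, a splicing factor gene, stood at 0.77 (FDR = 0.000233) and Eif4e1b at 0.66 (FDR = 0.000569).

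Marker genes of other cell types of the heart had few tested members, and a gene was counted if any of its regions was called. By region, 1 was higher and 0 lower of 9 for fibroblasts in the area at risk. These were 3 and 1 of 9 in remote myocardium. Endothelial and mural genes had 3 and 1 of 17, and 6 and 1 of 17. Immune genes had 1 and 0 of 9, and 3 and 0 of 8. The shares over all regions were 11.4% higher and 12.3% lower in the area at risk, and 20.6% and 19.9% in remote myocardium. Over the tested regions of chromosome 13 they were 22.0% and 4.84%, and 38.5% and 8.84%. Whether the marker genes differ from other regions of the chromosome was not tested. For fibroblasts 1 of 3 tested genes, the matrix protein gene Thbs4, was higher in the area at risk at 0.53 (edgeR FDR = 0.0343), and without mouse 19, 22, 23 or 30 or with DESeq2 this call ended (FDR from 0.0575 to 0.107). In remote myocardium 2 were higher and 1 lower, with Thbs4 at 0.91 (FDR = 6.97e-05) and the activin-binding protein gene Fst at -0.51 (FDR = 0.0332, ended without mouse 17, 19, 22 or 27 and with DESeq2, FDR from 0.0599 to 0.139). For endothelial and mural cells 1 of 7 was higher and 1 lower in each biopsy. The higher one was the adhesion docking protein gene Nedd9, with 3 of its 10 tested regions higher in the area at risk and 6 in remote myocardium, up to 1.09 (FDR = 5.69e-07). For immune cells 1 of 3, the kinase gene Syk, was higher in the area at risk at 0.43 (FDR = 0.0314, ended without mouse 19, 22 or 30 and with DESeq2, FDR from 0.0562 to 0.157). In remote myocardium Syk stood at 0.57 (FDR = 0.000302) and Cd83 at 0.73 (FDR = 3.65e-05). Developmental transcription factors had 1 higher of 7 in the area at risk (Pitx1, in an intergenic region at its end, 0.86, FDR = 0.0471, and 0.301 without mouse 19) and 1 lower of 7, Foxc1, in remote myocardium. By region, these were 1 of 12 and 1 of 12. Over all regions 11.4% were higher in the area at risk and 19.9% lower in remote myocardium. The call of Pitx1 also ended without mouse 23 or 27, with no low-count filter and with DESeq2 (FDR from 0.0517 to 0.168).

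The biopsies themselves did not differ at any region or window of the chromosome by edgeR's test. For H3K9me2 in area at risk over remote myocardium, 0 of 888 tested regions passed FDR 0.05 (0.0% of all regions tested), the smallest FDR was 0.999, and 37 (4.17%) had an unadjusted p under 0.05, with 4.00% over all regions. DESeq2 called 0 regions as well, and 24 had an unadjusted p under 0.05. The middle 95% of the log2 fold changes ran from -0.42 to 0.38, and the median standard error was 0.21. Over windows, 0 of 87 were called and 3 had an unadjusted p under 0.05, with log2 fold changes from -0.21 to 0.15 in the middle 95% and a median standard error of 0.09. A p that misses the threshold does not show that the biopsies are alike. The ranges describe the estimates and are not a detection limit: regions as far out as -0.66 and 0.78 were not called either. The size of difference that could be detected at this depth was not computed.

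The regions of smallest p in that contrast show how far values spread. In the gene body of Elmo1 (chr13:20558600-20560599) H3K9me2 had 12.5, 25.2 and 31.2 CPM in the area at risk, against 29.1, 32.6 and 42.9 CPM in remote myocardium, a log2 fold change of -0.65 ± 0.20 (edgeR FDR = 0.999). In the gene body of the kinesin gene Kif13a H3K9me2 had 14.4, 21.2 and 25.2 CPM in the area at risk, against 4.37, 11.1 and 21.2 CPM in remote myocardium, a log2 fold change of 0.78 ± 0.26 (FDR = 0.999). The groups overlap in both. The start of Naa35 and the gene body of Dtnbp1 stood at 0.55 and 0.52, and Eif4e1b and an intergenic region 5.61 kb from Fars2 at -0.57 and -0.54, with the same FDR.

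Inputs gave 0 of 1120 regions and 0 of 94 windows, with 41 and 5 at an unadjusted p under 0.05. The largest fold changes among the smallest p were 0.82 for a short region of Elmo1 (7.68, 12.7 and 14 CPM in input of the area at risk, against 2.66, 6.69 and 8.55 CPM in input of remote myocardium) and -0.50 for Irx4. The input-corrected difference, which asks whether H3K9me2 over input differs between biopsies, gave 0 of 1121 regions and 0 of 95 windows, with 51 and 4 at an unadjusted p under 0.05 (edgeR, smallest FDR 1.00 and 0.997). The larger number of calls in remote myocardium is therefore not a tested difference between the biopsies. Its widest values were -1.38 at the same Elmo1 region and 1.05 at the start of Secisbp2, a selenoprotein synthesis gene.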

How the data were processed

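H3K9me2 and input libraries of 2 biopsies from 6 mice were analysed. Whole-number counts per region and library stand in 4 tables that the authors deposited, which list identical regions on mm10, per the file headers and the values. Per the submitters' processing notes, Bowtie2 2.2.2, SICER 1.1 and edgeR were used, in roles the notes do not state. The calling of regions and the treatment of duplicates are not given in the sources used here. The deposited log2 fold change and p-value with its FDR, per the file headers, run the other way (input over H3K9me2, remote over risk) and were used only to count the authors' calls.

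From the counts, edgeR 4.0.16 (R 4.3.3) was run on all regions and on 1 Mb windows of all chromosomes (a region goes to the window of its midpoint), with library sizes from all listed regions, TMM scaling, filterByExpr and the quasi-likelihood test (two-sided), with calls at FDR under 0.05. The scripts were tested on simulated data. CPM values use the library's total in listed regions. The depth outside them is unknown. Genes and promoters are RefSeq's on GRCm38.p6, matched by position and symbol, and gene family clusters are 3 or more members with gaps up to 500 kb. The regions, gene lists, rule for named regions (the 8 lowest and 8 highest called regions of at least median abundance with the same sign in 6 of 6 mice, and the 3 of smallest p each way between biopsies), windows (the 6 lowest and 6 highest with 3 or more regions) and tests were chosen with earlier results of these data known. The region of Hnrnpk and those of single clusters and lists come from the lists and clusters, not from that rule. List members beyond the 4 of smallest p were named after their values were seen. Alternatives were the mouse as replicate block, other scalings, no low-count filter, each mouse left out, regions that overlap no other, DESeq2 1.42.0, FDR 0.01, and shifted or 2 Mb windows.

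The labels give the same mouse number to all 4 libraries of an animal, and pairing follows from that. Deviations of 1 mouse's libraries from their group means correlated at -0.01 to 0.17 (H3K9me2 with input, area at risk), 0.01 to 0.08 (the same in remote myocardium), -0.18 to 0.06 (H3K9me2 of both biopsies) and -0.08 to 0.03 (both inputs).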

Additional observations from a re-analysis of the deposited data

Results flagged for a closer look

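Among 170 groups of 6 libraries tested for a sample far from the others, 8 had one, and chance alone gives about 1 in 20. In H3K9me2 libraries of the area at risk, mouse 19 stood apart at the intergenic region at 63737000, with 68.4 CPM against 32 to 40.8 CPM in the other mice, and at Naa35, with 14.4 CPM against 26.7 to 33.6 CPM. In the same group mouse 22 had 2.40 CPM at Hnrnpk, against 10.01 to 14.2 CPM in the others. In H3K9me2 libraries of remote myocardium, mouse 23 had 2.90 CPM at Hnrnpa0, against 7.49 to 9.29 CPM, and 5.81 CPM in the window from 81 to 82 Mb, against 12.4 to 15.8 CPM. Mouse 27 had 32.4 CPM at Gm35190 in that group, against 42.9 to 48.1 CPM. In inputs of the area at risk, mouse 19 had 35.0 CPM at the intergenic region at 12768600, against 10.1 to 18.9 CPM, and mouse 17 had 35.4 CPM at Gm40860, against 13.3 to 19.9 CPM. The calls of Hnrnpa0, Hnrnpk, Gm35190, Gm40860 and both intergenic regions held without each of the mice in turn.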

How the results depend on the processing

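The median log2 fold change of chromosome 13 stayed between 0.22 and 0.25 in the area at risk and between 0.26 and 0.31 in remote myocardium when each mouse was left out. At FDR 0.01 the area at risk had 154 called regions, 122 higher and 32 lower. With library totals in place of TMM, windows of the area at risk numbered 56 (55 higher, 1 lower), and 4 were lower in remote myocardium. Windows shifted by 0.5 Mb gave 2 lower in the area at risk and 4 lower in remote myocardium. With 2 Mb windows 23 were called in the area at risk, 20 of them higher, and 36 in remote myocardium, 31 higher and 5 lower. These windows are fewer by construction. The cause of the other shifts was not tested.

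With 1 mouse left out, calls ranged from 200 to 296 regions in the area at risk (156 to 245 higher, 41 to 51 lower) and from 434 to 476 in remote myocardium (352 to 385 higher, 81 to 91 lower). Windows ranged from 26 to 38 (23 to 35 higher, 2 to 3 lower) and from 52 to 60 (46 to 51 higher, 6 to 10 lower). The biopsy contrasts gave 0 each time. With the mouse as replicate block, 284 regions were higher and 59 lower in the area at risk, and 423 and 99 in remote myocardium. The pairing changed no count by more than 1.5 times and turned no direction, and of the named results without a call it called Mrps27 (FDR = 0.0484) and Txndc5 (FDR = 0.0271) in the area at risk. Of the single windows, regions, genes and class medians recomputed, 931 values kept direction and call, 39 lost the call, 4 gained it and 1 moved under settings other than a mouse left out. With 1 mouse left out, 889 were kept, 102 lost the call, 11 gained it and 1 moved. None changed sign with a call. Depth limits single regions: the median standard error was 0.21 between H3K9me2 libraries.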

Other observations

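By 20 Mb stretch, H3K9me2 over input varied along the chromosome. From 0 to 20 Mb the median log2 fold change of tested regions was 0.28 in the area at risk and 0.44 in remote myocardium, where 19 of 41 were called higher and 1 lower. From 20 to 40 Mb, which holds the histone, vomeronasal, prolactin and serpin clusters, it was 0.34 and 0.41, with 43 higher and 4 lower of 151 in the area at risk and 71 higher and 17 lower of 151 in remote myocardium. From 40 to 60 Mb, with 677 regions, it was 0.19 and 0.27. From 60 to 80 Mb it was 0.16 and 0.25, from 80 to 100 Mb 0.33 and 0.31, and from 100 to 121 Mb 0.32 and 0.31. All 6 stretches were above the median of all tested regions in both biopsies.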
